A study of Mus musculus with 2 samples.

Results

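Endothelial cells hold to each other through junctions built from a small set of membrane proteins and the scaffolds beneath them, and 10 of the genes that encode these proteins are described here in the vessels of the mouse mandibular lymph node. The genes are a named list that was chosen by function: Cdh5, Pecam1, Esam, Cldn5, Cldn11, Ocln, F11r, Jam2, Tjp1 and Gja1. All 10 had exactly 1 entry among the 27998 gene entries (27933 symbols) of the count tables. Each was followed in lymphatic endothelial cells (LEC), in blood endothelial cells (BEC) and in gated subsets of both, in a library made after subarachnoid haemorrhage (SAH) and in a library made after a sham operation.

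Adherens junctions, built on the cadherin Cdh5 and its catenins, hold neighbouring endothelial cells together, and tight junctions, built on claudins, occludin, junctional adhesion molecules and the scaffold Tjp1, set how much fluid and solute passes between them. Gap junctions, built on connexins such as Gja1, connect the cytoplasm of neighbouring cells. In lymph nodes the same families line very different vessels: lymph sinuses that let lymph, antigen and cells through, high endothelial venules through which lymphocytes enter, and arteries and capillaries that carry blood.

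Mice of the SAH group received an infusion of autologous blood, and those of the other group a sham operation. Mandibular nodes, which drain the head, were taken at 24 h from 20 mice per group and pooled, so each group is 1 library and animals cannot be separated; strain, age and sex are not given in the sources used here. In both groups CD45-bearing cells were depleted on magnetic beads, and cells bound by antibodies against CD31 (the product of Pecam1) or podoplanin were then collected, with both antibodies carrying the same label. Pecam1 therefore took part in the choice of cells. Its presence is not a result, and its level in LEC against BEC cannot be told apart from the sort.

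With 1 library per group, no difference described here has a replicate check and no test was made. Every statement compares these libraries, not the conditions. Values are raw counts of unique molecular identifiers (UMIs), each marking 1 captured RNA molecule. A level is given in CPM, the UMIs of a gene summed over the cells of a group and scaled to a total of 1000000 UMIs for that group. A fold is the SAH level over the sham level. Ranges in parentheses are 95% intervals, exact for counts, and leave out all error other than that of counting.

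The SAH library held 13766 barcodes with 78497486 UMIs and the sham library 13952 barcodes with 72860197 UMIs. Barcodes with at least 500 genes and at most 10% mitochondrial UMIs numbered 11454 in the SAH library (median 5747 UMIs) and 11157 in the sham library (median 5039 UMIs). LEC, defined by at least 1 UMI of the lymphatic master regulator Prox1, numbered 2562 in the SAH library and 2364 in the sham library. BEC, defined by no Prox1 UMI and at least 2 UMIs of Ly6c1 and Flt1 together, numbered 6771 in the SAH library and 6502 in the sham library. The labels call the samples lymphatic endothelium, but LEC made up 22.4% of kept barcodes in the SAH library and 21.2% in the sham library. The libraries shared 76 cell barcodes, of which 2 were LEC and 13 were BEC in both.

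Prox1, Ly6c1 and Flt1 set the classes, so other markers were used to check them. Of the 7 lymphatic markers 6 were higher in LEC than in BEC in both libraries, Prox1 by definition. The lymphatic receptor Lyve1 was at 987 CPM (SAH) and 572 CPM (sham) in LEC, against 30.005 CPM (SAH) and 29.1 CPM (sham) in BEC. The exception was the chemokine Ccl21a, which high endothelial venules also express, at 1657 CPM (SAH) and 941 CPM (sham) in LEC, against 5223 CPM (SAH) and 2864 CPM (sham) in BEC. With it the lymphatic list summed to 4490 CPM (SAH) and 3079 CPM (sham) in LEC, against 5322 CPM (SAH) and 2934 CPM (sham) in BEC, so the sum did not separate the classes. Of the 7 blood endothelial markers 6 were higher in BEC in both libraries, Ly6c1 and Flt1 by definition, and the receptor Kdr was higher in LEC. Their sum was 3079 CPM (SAH) and 2377 CPM (sham) in LEC, against 8537 CPM (SAH) and 7405 CPM (sham) in BEC. The gates overlapped. Of LEC barcodes, 906 in the SAH library (35.4%) and 550 in the sham library (23.3%) also met the Ly6c1 and Flt1 count of BEC. Of these, 38.1% (SAH) and 42.9% (sham) were predicted doublets, against 4.29% (SAH) and 4.52% (sham) of the other LEC barcodes. For Jam2 and Esam, values without these barcodes and without predicted doublets are given beside the results.

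Within LEC, barcodes positive for a single gate were grouped by Ackr4, which marks the ceiling of the subcapsular sinus (982 SAH and 1096 sham barcodes), by Madcam1 or Coch, which mark its floor (452 SAH and 447 sham), and by Marco, which marks medullary sinuses (244 SAH and 92 sham). A further 525 SAH and 569 sham LEC met none of the gates, and 359 SAH and 160 sham met several. Within BEC the gates were Sema3g or Stmn2, markers of arteries (1246 SAH and 993 sham barcodes), Fut7 or Chst4, which make the sugar ligands of high endothelial venules (845 SAH and 757 sham), and Col13a1, a capillary marker (1352 SAH and 1635 sham). None of these gates was met by 2450 SAH and 2448 sham BEC, and several by 878 SAH and 669 sham.

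Lymphatic and blood endothelium differed first in which claudins and junctional adhesion molecules they held. In both libraries 3 of the 10 genes, Cldn5, Cldn11 and F11r, were at least 1.5-fold higher in LEC than in BEC, and 3, Pecam1, Esam and Jam2, were at least 1.5-fold lower. Over all 7155 genes of at least 20 CPM, 14.7% were as much higher and 8.71% as much lower in both libraries. The list was chosen as endothelial and Pecam1 took part in the sort, so these shares are a description of where its genes lie.

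The 250 bases before the transcription start of the 3 LEC-high genes are shown because these genes had the same direction between the classes. The sequences are from RefSeq on build GRCm38.p6, each on the + strand: Cldn5 at chr16:18776597-18776846, Cldn11 at chr3:31149670-31149919 and F11r at chr1:171437311-171437560. Starts and distances are those of RefSeq. The F11r window runs past the GENCODE start of its gene, 171437535, so its last bases lie inside the gene by those coordinates. Capitals mark the letters CCAAT or their reverse complement ATTGG.
Cldn5: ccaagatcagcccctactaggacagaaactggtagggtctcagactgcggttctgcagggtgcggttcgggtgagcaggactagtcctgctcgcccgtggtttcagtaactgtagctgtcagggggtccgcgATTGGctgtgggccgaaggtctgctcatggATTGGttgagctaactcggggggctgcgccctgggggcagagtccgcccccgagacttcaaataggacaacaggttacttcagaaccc
Cldn11: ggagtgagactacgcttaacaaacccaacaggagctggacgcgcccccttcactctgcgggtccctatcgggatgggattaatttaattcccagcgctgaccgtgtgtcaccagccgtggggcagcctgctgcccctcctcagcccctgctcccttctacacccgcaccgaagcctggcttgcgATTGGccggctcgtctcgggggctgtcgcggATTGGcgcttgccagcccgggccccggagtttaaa
F11r: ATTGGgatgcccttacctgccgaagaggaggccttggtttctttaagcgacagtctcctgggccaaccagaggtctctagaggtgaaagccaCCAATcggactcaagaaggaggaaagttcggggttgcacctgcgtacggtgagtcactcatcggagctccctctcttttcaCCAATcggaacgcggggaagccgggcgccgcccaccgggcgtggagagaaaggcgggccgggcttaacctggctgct

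Cldn5 held the CCAAT letters at 88 and 118 bases before the start, counted from the first base of the match, Cldn11 at 35 and 66 bases, and F11r at 77, 158 and 250 bases. Of 32851 RefSeq promoter windows of the same length, 33.8% held at least 1 such match on either strand and 10.1% held 2 or more. The windows of Tjp1 and Gja1 held 0 matches, and of the 2 Ocln windows 1 held a match. The Tjp1 window, at chr7:65371245-65371494 on the - strand, lies inside the annotated gene at chr7:65296165-65527781 and not at its outer end. The other motifs were also searched on both strands, and no CCAAT match overlapped one of them. GGGCGG was held by 32.7% of all windows and by those of Cldn5 and F11r. TAAACA was held by 12.03% of all windows and by none of the 3 printed. CACCC was held by 52.0% of all windows and by those of Cldn5 and Cldn11. GGAA was held by 93.4% of all windows and by those of Cldn11 and F11r. CCAAT, the motif marked, was the only one searched that all 3 printed windows held, and no enrichment is read from 3 windows. A match is a description of letters and no evidence that a factor binds. Cdh5, Pecam1, Esam and Jam2 had no entry in the promoter table, so matches cannot be compared between genes higher in LEC and genes higher in BEC.

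Cldn5 encodes claudin-5, the main strand-forming claudin of endothelium, from a short gene at chr16:18776847-18778262 on the + strand. Its level was 1422 CPM (SAH) and 1258 CPM (sham) in LEC, against 182 CPM (SAH) and 184 CPM (sham) in BEC. LEC were 7.81-fold (7.61 to 8.02) above BEC in the SAH library and 6.83-fold (6.65 to 7.02) above BEC in the sham library. After every cell was thinned to 2000 UMIs, a Cldn5 UMI was found in 73.7% (SAH) and 72.2% (sham) of LEC and in 21.4% (SAH) and 20.4% (sham) of BEC. Cldn5 in BEC stood above its level in fibroblast barcodes, at 28.0 CPM (SAH) and 16.3 CPM (sham).

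Within the lymphatic vessels Cldn5 followed position in the sinus. Ackr4 LEC held 2036 CPM (SAH) and 1916 CPM (sham), Marco LEC 1612 CPM (SAH) and 1003 CPM (sham), and Madcam1 or Coch LEC 355 CPM (SAH) and 323 CPM (sham). The ceiling marker group was thus 5.74-fold (5.44 to 6.06) above the floor marker group in the SAH library and 5.92-fold (5.60 to 6.27) above it in the sham library. A Cldn5 UMI was found in 94.0% (SAH) and 92.8% (sham) of thinned Ackr4 LEC, against 39.1% (SAH) and 35.9% (sham) of thinned Madcam1 or Coch LEC. Among the gated BEC the gene was highest in the artery marker group. Sema3g or Stmn2 BEC held 336 CPM (SAH) and 432 CPM (sham), Fut7 or Chst4 BEC 126 CPM (SAH) and 97.7 CPM (sham), and Col13a1 BEC 92.1 CPM (SAH) and 106 CPM (sham). The floor and the artery group did not differ beyond their counting intervals in the SAH library, while the artery group stood above the floor in the sham library.

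Cldn11 encodes claudin-11, known as the claudin of myelin and of the Sertoli cell barrier, and lies at chr3:31149920-31164324 on the + strand. It was at 152 CPM (SAH) and 133 CPM (sham) in LEC, against 7.12 CPM (SAH) and 3.47 CPM (sham) in BEC. Its levels in the sinus groups lay close together: Ackr4, Madcam1 or Coch, and Marco LEC held 164, 163 and 144 CPM in the SAH library and 144, 131 and 136 CPM in the sham library. Ackr4 over Madcam1 or Coch LEC was 1.01 (0.922 to 1.11) in the SAH library and 1.10 (0.992 to 1.22) in the sham library, against the 5.74 (SAH) and 5.92 (sham) of Cldn5. The level in BEC was near that of cells that should lack the gene. Fibroblast barcodes held 4.77 CPM (SAH) and 1.34 CPM (sham), and lymphocyte barcodes 10.7 CPM (SAH, 4 UMIs) and 1.255 CPM (sham, 1 UMI). The ratio of LEC to BEC, 21.4 (18.9 to 24.3) in the SAH library and 38.5 (32.2 to 46.3) in the sham library, therefore rests on a denominator near that level. The Fut7 or Chst4 group held 15.2 CPM (SAH) and 6.46 CPM (sham), the highest of the gated BEC and above the fibroblast level in both libraries. Both values lay within the counting intervals of the few lymphocyte UMIs, 2.93 to 27.5 CPM (SAH) and 0.0318 to 6.99 CPM (sham).

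F11r encodes junctional adhesion molecule A, which recruits polarity proteins to tight junctions, at chr1:171437535-171464603 on the + strand. It was at 386 CPM (SAH) and 366 CPM (sham) in LEC, against 193 CPM (SAH) and 192 CPM (sham) in BEC, a ratio of 2.00 (1.94 to 2.06) in the SAH library and 1.91 (1.84 to 1.97) in the sham library. Its levels in the Ackr4 and Marco groups, 419 and 444 CPM in the SAH library and 419 and 362 CPM in the sham library, stood above the 324 CPM (SAH) and 298 CPM (sham) of the floor marker group. Stretches of 50 bases shared with transcripts of other genes made up 0.830% of F11r's stretches, 0.998% of Pecam1's and 0.0957% of Gja1's, and 0% for the other 7 genes.

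**Figure D1:**
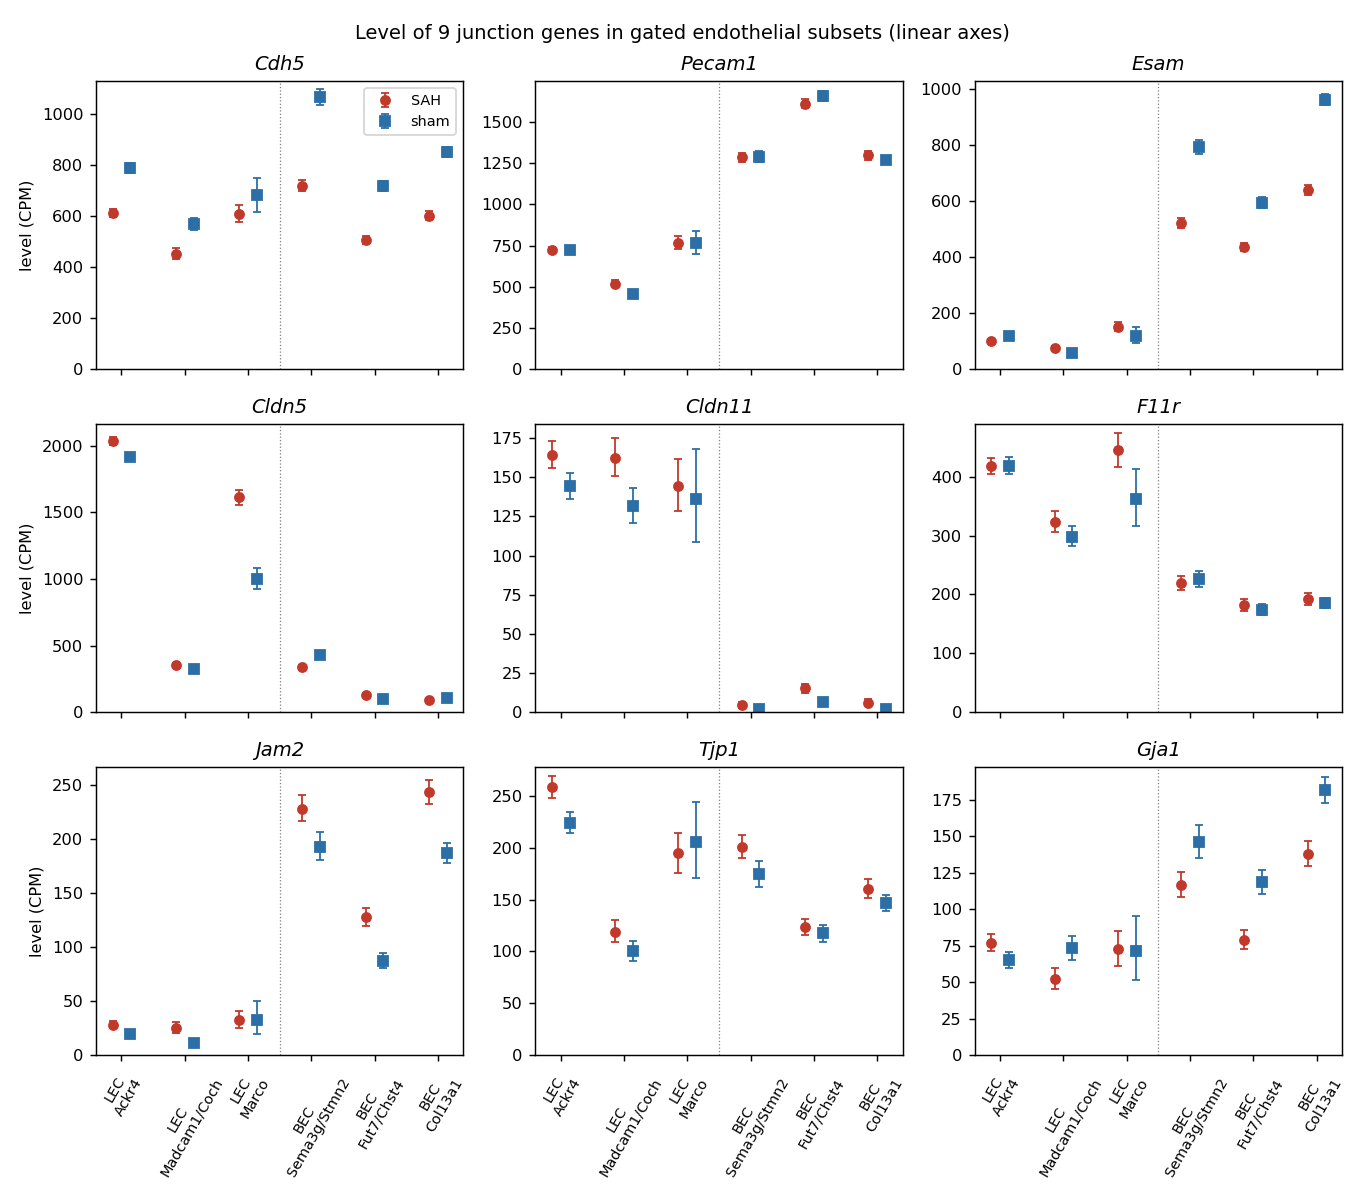
Level in CPM of 9 junction genes (linear axes from 0) in the 3 gated LEC subsets, left of the dotted line, and the 3 gated BEC subsets, right of it; red circles are the SAH library, blue squares the sham library, and bars are exact 95% counting intervals. Cldn5, Cldn11 and F11r stand higher in the LEC subsets and Pecam1, Esam and Jam2 in the BEC subsets, and Cldn5 in Madcam1 or Coch LEC (355 CPM SAH, 323 CPM sham) lies near the artery group.

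The genes higher in blood endothelium were Pecam1, Esam and Jam2, and for Pecam1 this cannot be told apart from the sort on its product. Pecam1, an immunoglobulin-family protein that binds itself across cell contacts, was at 708 CPM (SAH) and 684 CPM (sham) in LEC, against 1380 CPM (SAH) and 1416 CPM (sham) in BEC. Its highest gated subset was Fut7 or Chst4 BEC at 1610 CPM (SAH) and 1654 CPM (sham), and its lowest was Madcam1 or Coch LEC at 520 CPM (SAH) and 460 CPM (sham). Esam, an adhesion protein of endothelial and platelet contacts, was at 124 CPM (SAH) and 136 CPM (sham) in LEC, against 525 CPM (SAH) and 785 CPM (sham) in BEC. Jam2, junctional adhesion molecule B, a partner of the protein encoded by Jam3, was at 39.0 CPM (SAH) and 24.8 CPM (sham) in LEC, against 203 CPM (SAH) and 156 CPM (sham) in BEC. In the high endothelial venule group Jam2 was 0.525 (0.484 to 0.568) of its level in Col13a1 BEC in the SAH library and 0.467 (0.425 to 0.512) of it in the sham library.

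The Esam and Jam2 counts in LEC came largely from the barcodes that also met the BEC count of Ly6c1 and Flt1. These barcodes held 92.3% (SAH) and 93.7% (sham) of all Jam2 UMIs of LEC and 77.2% (SAH) and 79.0% (sham) of the Esam UMIs, while they held 40.7% (SAH) and 27.3% (sham) of LEC UMIs of all genes. In the remaining LEC Jam2 was at 5.05 CPM (SAH, 68 UMIs) and 2.15 CPM (sham, 29 UMIs), no higher than in fibroblast barcodes, which held 7.24 CPM in each library. Esam in the remaining LEC was at 47.7 CPM (SAH) and 39.5 CPM (sham), above its 11.2 CPM (SAH) and 15.0 CPM (sham) in fibroblast barcodes. The lymphatic genes leaned the other way: Cldn5 was at 1636 CPM (SAH) and 1405 CPM (sham) in the remaining LEC, against 1112 CPM (SAH) and 867 CPM (sham) in those that met the BEC count. Without those barcodes the difference between the classes in Esam and Jam2 was wider than given above. The barcodes were set apart by UMIs of blood endothelial genes, so for genes that go with Ly6c1 and Flt1 this direction is not independent of the gate.

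**Figure D2:**
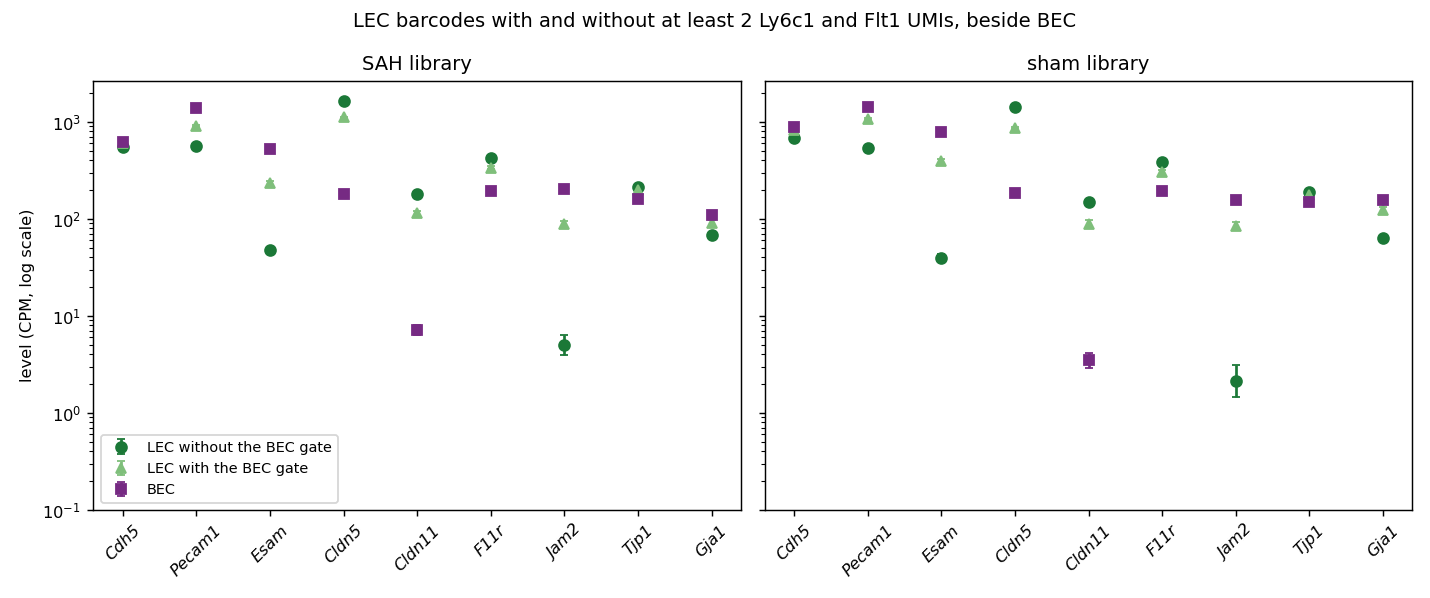
Level in CPM (log axis) of 9 junction genes in LEC without the BEC gate (dark green circles), LEC with it (light green triangles) and BEC (purple squares), SAH library left and sham library right; the gate is at least 2 Ly6c1 and Flt1 UMIs and bars are exact 95% counting intervals. Esam and Jam2 in LEC with the gate lie between the other classes, and Jam2 without it is at 5.05 CPM (SAH) and 2.15 CPM (sham).

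As gated, Cdh5, Tjp1 and Gja1 did not divide the classes by 1.5-fold in both libraries, and for Gja1 this depended on the gates. Cdh5, the endothelial cadherin, at chr8:104101625-104144511 on the + strand, was at 573 CPM (SAH) and 723 CPM (sham) in LEC, against 612 CPM (SAH) and 889 CPM (sham) in BEC. Tjp1, which encodes the scaffold ZO-1 that ties tight junction proteins to actin, was at 207 CPM (SAH) and 185 CPM (sham) in LEC, against 160 CPM (SAH) and 147 CPM (sham) in BEC. Within LEC it shared the contrast of ceiling and floor with Cldn5: Ackr4 LEC were 2.17-fold (1.97 to 2.40) above Madcam1 or Coch LEC in the SAH library and 2.24-fold (2.014 to 2.501) above them in the sham library. Gja1, which encodes connexin 43, was at 77.8 CPM (SAH) and 80.0 CPM (sham) in LEC, against 110 CPM (SAH) and 155 CPM (sham) in BEC. Among blood vessels it was lowest in the Fut7 or Chst4 group, at 79.3 CPM (SAH) and 118 CPM (sham), and highest in the Col13a1 group, at 138 CPM (SAH) and 182 CPM (sham). The ratio of LEC to BEC for Gja1 was 0.707 (0.669 to 0.748) in the SAH library and 0.516 (0.487 to 0.547) in the sham library. With LEC without the BEC gate it was 0.624 (SAH) and 0.411 (sham), past 1.5-fold in both. The SAH ratio was past 1.5-fold in 6 of 14 other settings.

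Ocln, which encodes occludin, a tight junction protein well known from epithelium and brain endothelium, was at the limit of detection. LEC held 0 Ocln UMIs in both libraries, which with a floor of 3 counts allows a level of up to 0.132 CPM in the SAH library and 0.162 CPM in the sham library. BEC held 3 Ocln UMIs in each library. No fold is given for Ocln, and it was left out of counts below.

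The question the design poses is how these vessels differ 24 h after SAH. In LEC, 9 of the 10 genes reached 20 CPM in the higher library. Of these, 1 (Jam2) was at least 1.5-fold higher in the SAH library and 0 were at least 1.5-fold lower, against 5.58% and 2.83% of 6816 genes in all. At a narrower limit, a log2 fold of 0.32 in either direction, 1 was higher (Jam2) and 1 was lower (Cdh5), against 17.2% and 13.7% of all genes. The median log2 fold of the 9 genes was 0.08.

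In BEC, 8 of the 10 genes reached 20 CPM, with Cldn11 and Ocln below it. At the 1.5-fold limit 0 were higher and 0 were lower in the SAH library, against 5.72% and 2.53% of 6276 genes. At the narrower limit, 3 were lower (Cdh5, Esam and Gja1) and 1 was higher (Jam2), against 15.5% and 16.7% of all genes. The median log2 fold of the 8 genes was -0.03, a middle value of members on both sides of 1, and it was above 0 under 6 other settings, at up to 0.073. The subset mix of the classes differed between the libraries, so folds within subsets are given beside those of the class.

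Cdh5 was lower in the SAH library in LEC, in BEC and in all 5 BEC groups. In BEC its fold was 0.689 (0.677 to 0.701), at percentile 3.57 of folds over all genes. The artery, high endothelial venule and capillary marker groups held 720, 507 and 602 CPM in the SAH library, against 1067, 718 and 852 CPM in the sham library. Their folds were 0.675 (0.648 to 0.704), 0.706 (0.677 to 0.737) and 0.707 (0.681 to 0.733). In BEC that met none of the gates the fold was 0.649, past the lower limit. The share of all genes past that limit was not counted in this group. Its fibroblast markers summed to 4707 CPM (SAH) and 2630 CPM (sham), and their part in the fold was not tested. In LEC the fold was 0.792 (0.773 to 0.812), at percentile 12.4, with 614 CPM (SAH) and 788 CPM (sham) in Ackr4 LEC and 454 CPM (SAH) and 568 CPM (sham) in Madcam1 or Coch LEC. In Marco LEC the fold was 0.895 (0.801 to 1.00) and its interval reached 1. In LEC with at least 2 Igfbp5 UMIs it was 1.07 (0.948 to 1.21). LEC without the BEC gate gave 0.808 (0.783 to 0.833). The antisense gene Gm29682 overlaps Cdh5, and whether counting used strand is not given in the sources used here.

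Esam came closest to the lower limit in BEC as a class and was past it in some of its groups. Its fold in BEC was 0.669 (0.657 to 0.681), beside a limit of 0.667, at percentile 2.61 of all genes. Levels were 522, 438 and 641 CPM in the artery, venule and capillary marker groups of the SAH library, against 794, 596 and 962 CPM in those of the sham library. Folds were 0.657 in the artery group, 0.735 in the venule group and 0.666 in the capillary group, and 0.631 in BEC that met none of the gates. Of all genes, 3.89% in the artery group and 3.22% in the capillary group were past the lower limit. That share was not counted in BEC that met none of the gates. Of the gated BEC the capillary group held the highest level of Esam and the venule group the lowest in both libraries. In LEC the fold of Esam was 0.907 (0.860 to 0.958) over all barcodes, and 0.943 without predicted doublets. In Ackr4 LEC it was 0.865, and 1.02 without predicted doublets. It was 1.21 (1.08 to 1.36) in LEC without the BEC gate and 0.594 (0.559 to 0.632) in those with it, so its direction in LEC turned with those barcodes.

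Gja1 had a fold of 0.710 (0.682 to 0.739) in BEC, at percentile 4.94. The artery, venule and capillary groups held 117, 79.3 and 138 CPM in the SAH library, against 146, 118 and 182 CPM in the sham library, and the intervals of the libraries did not overlap in any of the 3. In LEC its fold was 0.973 (0.907 to 1.04), with an interval that held 1. The fold was 1.08 (0.982 to 1.19) in LEC without the BEC gate and 0.737 (0.664 to 0.819) in those with it. The floor marker group was lower at 52.4 CPM (SAH) against 73.1 CPM (sham), and the ceiling group higher at 76.8 CPM (SAH) against 65.3 CPM (sham). The sign in the floor group turned when cells were thinned to 2000 UMIs, where the fold was 1.10.

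Jam2 went the other way. In BEC its fold was 1.30 (1.255 to 1.34), at percentile 86.6, with 228, 127 and 243 CPM in the artery, venule and capillary groups of the SAH library, against 193, 87.0 and 186 CPM in those of the sham library. Among BEC its largest fold in a gated subset was in Fut7 or Chst4 cells, 1.46 (1.32 to 1.62). In LEC the fold was 1.57 (1.41 to 1.77), at percentile 96.0. It was 1.47 (1.20 to 1.80) in the Ackr4 group and 1.00 (0.600 to 1.74) in the Marco group. In the Madcam1 or Coch group it was 2.18 (1.53 to 3.15), from 103 SAH and 47 sham UMIs. Of all genes in that group, 7.54% were at least 1.5-fold higher. Without predicted doublets the Jam2 fold in LEC as a class was 1.80. LEC barcodes that met the BEC count made up 35.4% of LEC in the SAH library and 23.3% in the sham library, and their part in the fold was not tested. Within those barcodes Jam2 was at 88.4 CPM (SAH) and 85.02 CPM (sham), a fold of 1.04 (0.924 to 1.17). Outside them it was 2.35 (1.502 to 3.77), at levels below those of fibroblast barcodes.

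**Figure D3:**
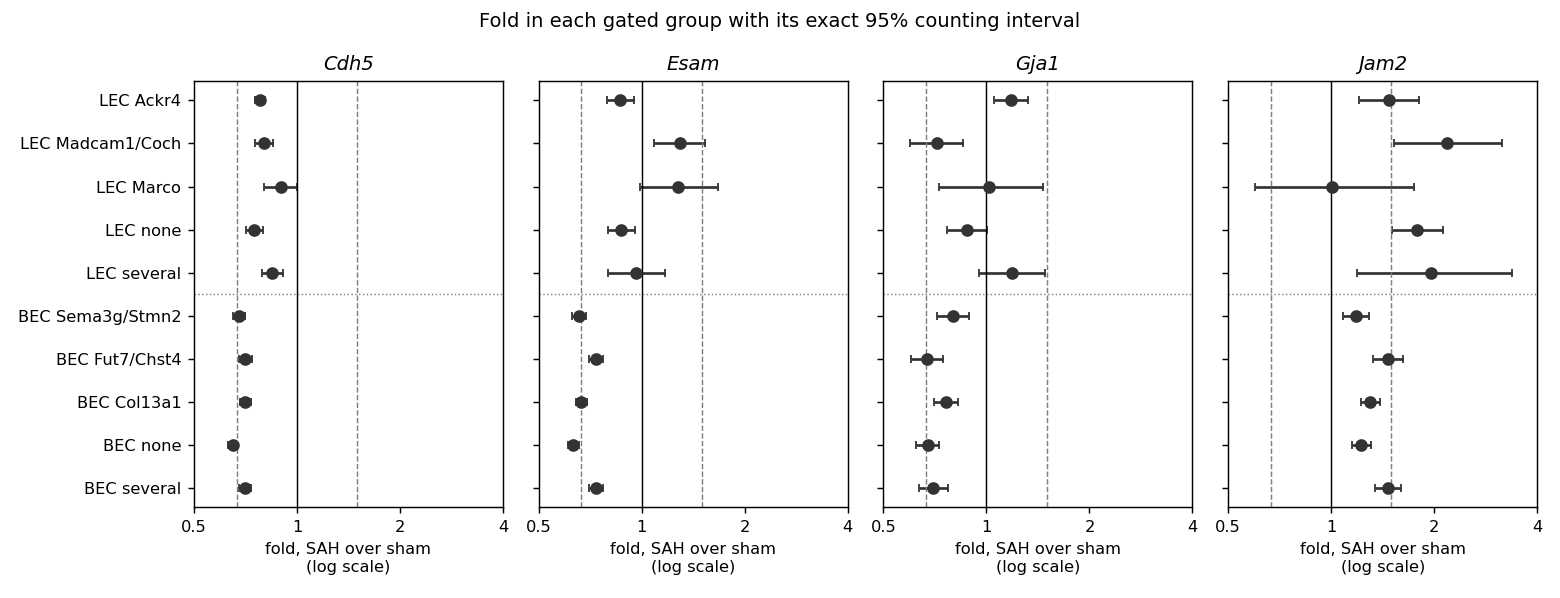
Fold, SAH over sham (log axis), of Cdh5, Esam, Gja1 and Jam2 in each LEC group (upper rows) and BEC group (lower rows), with exact 95% counting intervals; the solid line is a fold of 1 and dashed lines are the 1.5-fold limits. Cdh5, Esam and Gja1 lie left of 1 and Jam2 right of 1 in all 5 BEC groups, while Esam and Gja1 lie on either side of 1 among the LEC groups.

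The other members of the tight junction were close between the libraries in the classes where they reached 20 CPM. Cldn11 in BEC, below that level, had a fold of 2.05 (1.66 to 2.56), at 7.12 CPM (SAH) and 3.47 CPM (sham). These levels were near those of cells that should lack the gene. In BEC the fold was 0.989 (0.956 to 1.02) for Cldn5, 1.01 (0.974 to 1.04) for F11r and 1.09 (1.05 to 1.13) for Tjp1. In LEC it was 1.13 (1.11 to 1.15) for Cldn5, 1.14 (1.08 to 1.20) for Cldn11, 1.06 (1.02 to 1.09) for F11r and 1.12 (1.07 to 1.17) for Tjp1. Pecam1 had a fold of 1.04 (1.01 to 1.06) in LEC and 0.974 (0.963 to 0.986) in BEC, and the BEC fold was above 1 in 4 of 14 other settings. The class value of Cldn5 in BEC covered unlike subsets, with folds of 0.778 (0.731 to 0.828) in the artery group, 1.29 (1.17 to 1.42) in the venule group and 0.873 (0.790 to 0.964) in the capillary group.

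Cldn5 was over 1.5-fold higher in the SAH library in 2 small lymphatic groups, and the share of all genes was counted only in Marco LEC. In Marco LEC its fold was 1.61 (1.48 to 1.75), from 244 SAH and 92 sham barcodes. Of 7110 genes in Marco LEC, 13.8% were at least 1.5-fold higher and 11.5% at least 1.5-fold lower. Summed fibroblast markers were at 1127 CPM (SAH) and 2672 CPM (sham) in that group, and without barcodes of at least 5 fibroblast marker UMIs the fold was 1.40. In LEC with at least 2 Igfbp5 UMIs (140 SAH and 126 sham barcodes) Cldn5 was at 1862 CPM (SAH) and 950 CPM (sham), Pecam1 at 681 CPM (SAH) and 460 CPM (sham), and Gja1 at 167 CPM (SAH) and 99.0 CPM (sham). In BEC outside the gates that held at least 2 Kit and Aqp1 UMIs (1630 SAH and 1785 sham barcodes) Cdh5 was at 751 CPM (SAH) and 1057 CPM (sham) and Esam at 571 CPM (SAH) and 807 CPM (sham), the same direction as in the gated subsets.

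**Figure D4:**
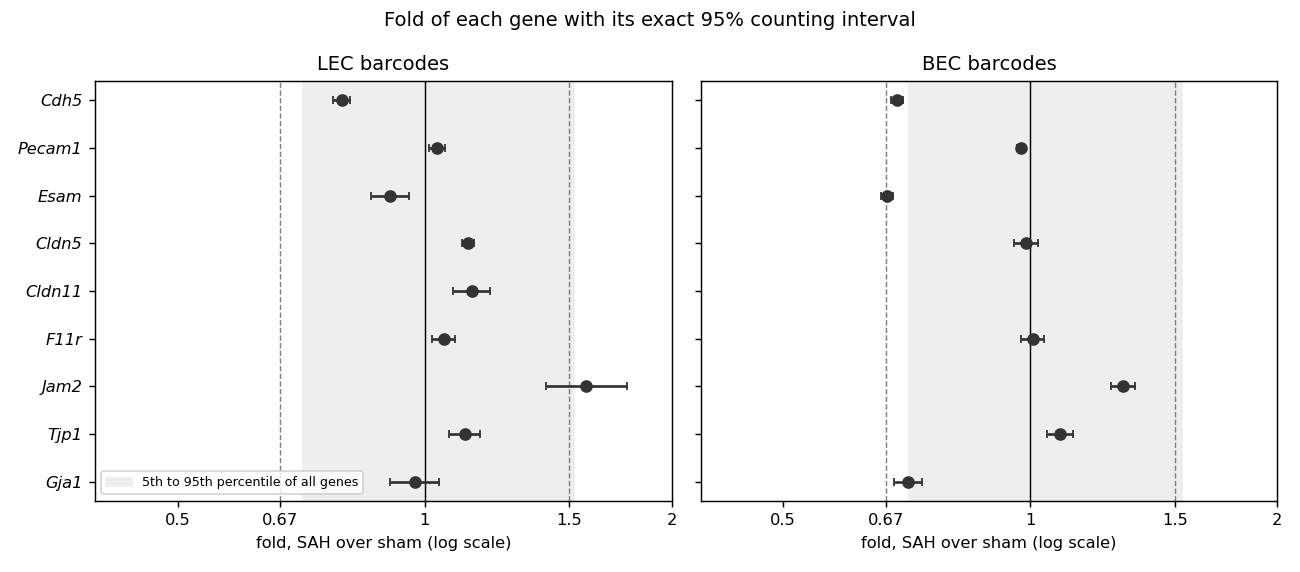
Fold, SAH over sham (log axis), of each junction gene of at least 20 CPM in LEC (left) and BEC (right), with exact 95% counting intervals; the grey band spans the 5th to 95th percentile of folds over all genes and dashed lines are the 1.5-fold limits. Cdh5 (0.689), Esam (0.669) and Gja1 (0.710) lie below the band in BEC, and Jam2 (1.57) lies above it in LEC.

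RNA of other cells differed between the libraries among BEC barcodes. The 6 fibroblast markers summed to 2355 CPM (SAH) and 1293 CPM (sham) in BEC, of which Dcn gave 1758 CPM (SAH) and 793 CPM (sham), and 11.02% (SAH) and 5.72% (sham) of BEC barcodes held a Pdgfra UMI. The 6 epithelial markers summed to 969 CPM (SAH) and 201 CPM (sham), mostly the salivary genes Smr3a and Bpifa2, with Krt14 at 0 in the SAH library. In Fut7 or Chst4 BEC the epithelial markers summed to 3095 CPM (SAH) and 102 CPM (sham). The part of epithelial RNA in the results was not tested. The 7 lymphatic markers summed to 5322 CPM (SAH) and 2934 CPM (sham), nearly all Ccl21a, with Prox1 at 0 by definition. Without barcodes of at least 5 fibroblast marker UMIs the BEC folds were 0.744 for Cdh5, 0.722 for Esam, 0.777 for Gja1 and 1.39 for Jam2. Without barcodes holding any UMI of Ptprc, Pdgfra, Pdgfrb, Epcam or Col1a1 they were 0.741, 0.720, 0.781 and 1.37 in the same order. The 3 lower genes were thus less far below 1 without those barcodes, and none changed direction. In LEC the fibroblast markers summed to 1159 CPM (SAH) and 1101 CPM (sham).

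The share of cells with a UMI, after thinning to 2000 UMIs, moved as the levels did. Cdh5 was found in 68.1% (SAH) and 79.7% (sham) of BEC, against 85.8% (SAH) and 91.7% (sham) without thinning. Esam was found in 62.5% (SAH) and 76.3% (sham), Gja1 in 19.1% (SAH) and 25.5% (sham) and Jam2 in 33.6% (SAH) and 27.4% (sham) of thinned BEC. Without thinning these shares were 82.6% (SAH) and 89.8% (sham) for Esam, 36.7% (SAH) and 46.0% (sham) for Gja1 and 57.6% (SAH) and 50.7% (sham) for Jam2. In thinned fibroblast barcodes, which should lack endothelial Cdh5 and Esam, the shares were 4.17% (SAH) and 4.28% (sham) for Cdh5 and 2.45% (SAH) and 3.33% (sham) for Esam. There they were 1.23% (SAH) and 0.951% (sham) for Jam2. Gja1 can be expressed by fibroblasts, so its 1.84% (SAH) and 2.38% (sham) there is no measure of background. The median depth before thinning was 4707 UMIs (SAH) and 4533.5 UMIs (sham) in BEC and 7029 UMIs (SAH) and 5273.5 UMIs (sham) in fibroblast barcodes. Thinning left out 708 SAH and 634 sham BEC and 53 SAH and 40 sham LEC. For Cldn11 in BEC the thinned shares were 1.15% (SAH) and 0.562% (sham), beside 0.982% (SAH) and 0% (sham, 0 of 631 cells, which allows up to 0.475%) in fibroblast barcodes, so no expression is read from them.

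**Figure D5:**
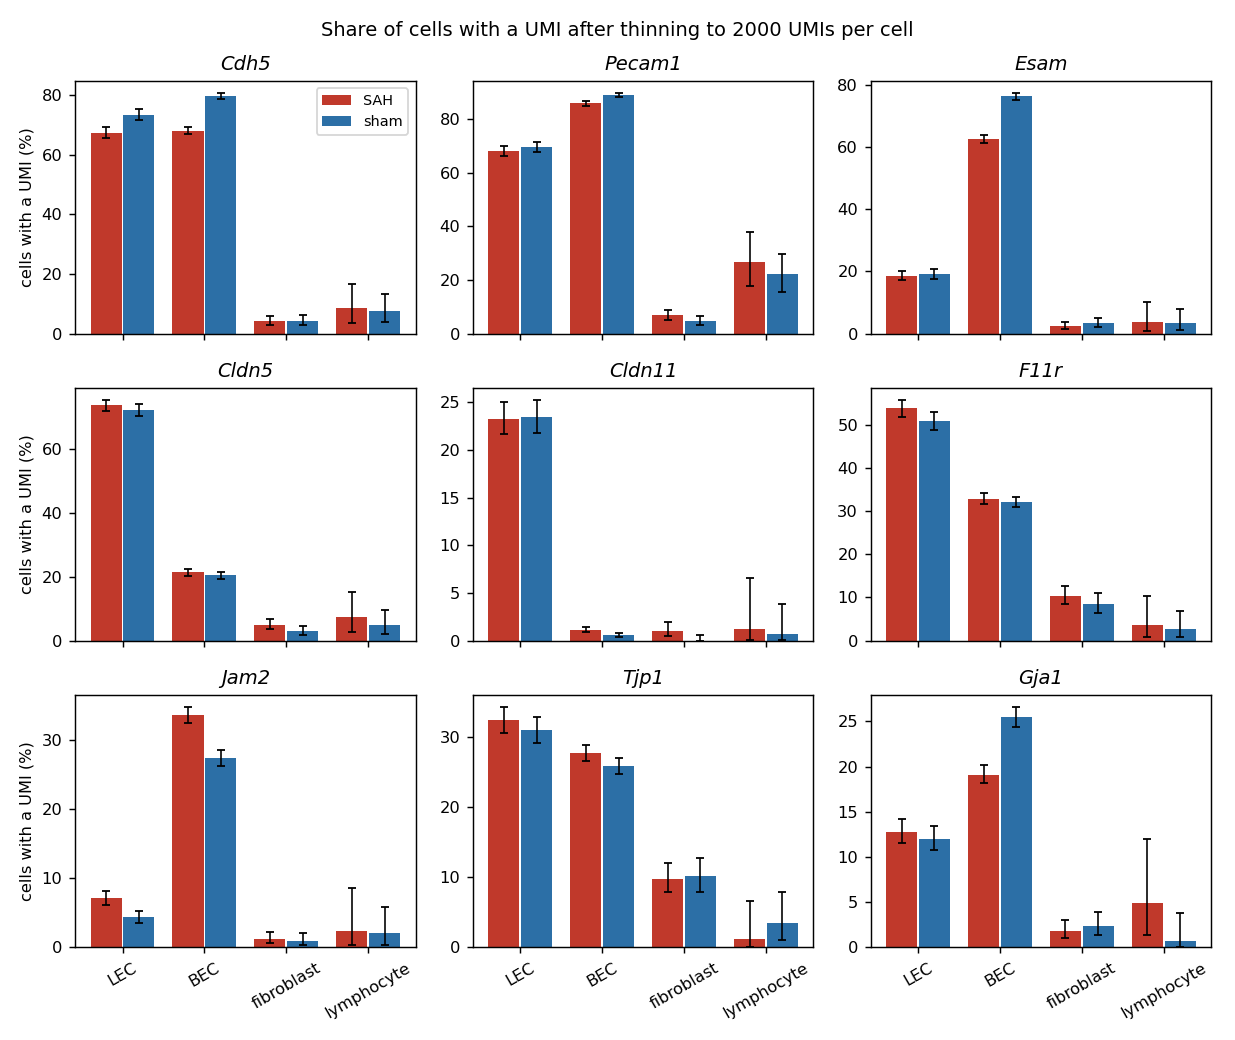
Share of cells (%) with at least 1 UMI of each gene after thinning every cell to 2000 UMIs, in LEC, BEC, fibroblast and lymphocyte barcodes; red bars are the SAH library, blue bars the sham library and error bars exact Clopper-Pearson 95% intervals. Cdh5 and Esam are the pair with the widest gap between libraries in BEC (68.1% SAH and 79.7% sham for Cdh5, 62.5% SAH and 76.3% sham for Esam).

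Other genes of the same pathways were read from lists by function. Beside their counts stand the shares of all genes past 1.5-fold, 5.58% higher and 2.83% lower in LEC and 5.72% higher and 2.53% lower in BEC, and the lists are short, so nothing particular to a list is read from its count. Of the adherens junction list 9 of 14 genes reached 20 CPM in LEC and 11 of 14 in BEC, and 0 passed the 1.5-fold limit in either direction in either class. Their median log2 fold was -0.14 in LEC and -0.13 in BEC. The list holds 4 catenins, the cytoplasmic partners of cadherins, all named here after their values were seen. The folds of Ctnna1 (alpha-catenin) were 0.908 in LEC and 0.925 in BEC, and those of Ctnnb1 (beta-catenin) 0.805 in LEC and 0.798 in BEC. Ctnnd1 (p120-catenin) had 0.730 in LEC and 0.695 in BEC, and Jup (plakoglobin) had 0.717 in LEC and 0.807 in BEC. Of the tight junction list 8 of 22 genes reached the level in LEC and 6 of 22 in BEC. Amotl2, a scaffold that links junctions to actin, was lower in LEC, with a fold of 0.651 (0.606 to 0.699), and 0 others passed in LEC or BEC. Of the 8 gap junction genes 2 reached the level in each class and 0 passed.

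Of the other contact proteins of endothelium 11 of 13 reached the level in LEC and 12 of 13 in BEC. The 1 gene that passed was the same in both classes. It was Mcam (CD146), at 30.8 CPM (SAH) and 54.0 CPM (sham) in LEC and 88.7 CPM (SAH) and 177 CPM (sham) in BEC, with folds of 0.571 (0.518 to 0.630) in LEC and 0.502 (0.482 to 0.524) in BEC. Of 28 junction regulators 27 reached the level in LEC, with 1 higher and 2 lower, and 24 in BEC, with 0 higher and 2 lower. Rhob, a small GTPase of endosomes and actin, had folds of 0.602 (0.573 to 0.632) in LEC and 0.593 (0.580 to 0.607) in BEC. Angpt2, an antagonist ligand of the receptor Tek, had a fold of 0.536 (0.493 to 0.583) in LEC, and Tie1, a co-receptor of Tek, one of 1.59 (1.52 to 1.66). Vasp, an actin filament elongation factor, had a fold of 0.656 (0.626 to 0.687) in BEC. The median log2 fold of the regulators was -0.08 in LEC and -0.20 in BEC. Of 18 transcription factors of endothelial genes 18 reached the level in LEC, where Sox7 was lower at 0.655 (0.608 to 0.706) and Lyl1, named after its value was seen since its level was too low for the naming rule, was higher at 1.62, and 14 in BEC, where 0 passed. Their median log2 fold was -0.06 in LEC and -0.12 in BEC. The medians of all genes were 0.992 as a fold in LEC and 0.984 in BEC.

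Likeness between genes was described by Pearson's r of log2(CPM + 1) over 20 profiles, the 10 cell groups in each of 2 libraries, which share libraries, depth and gates. Among the members, Pecam1 and Esam had r = 0.946, Esam and Jam2 r = 0.943, and Cldn5 and F11r r = 0.947. Cldn11 and Esam had r = -0.938. These values mostly restate the split between LEC and BEC. Over 8192 genes the 3 most alike were Nsmaf (r = 0.973), Tanc2 (r = 0.969) and Mmgt2 (r = 0.966) for Cldn5. For Cldn11 they were C5ar2 (r = 0.984), Pvrl2 (r = 0.982) and Srgap3 (r = 0.980). For F11r they were Popdc2 (r = 0.981), Bcar3 (r = 0.976) and Tor1aip2 (r = 0.976). Among the BEC genes, Pecam1 was most like Eps8 (r = 0.968), Gda (r = 0.968) and Sh3bgrl (r = 0.966). Esam was most like Tmem47 (r = 0.986), Adgrl2 (r = 0.983) and Sorbs2 (r = 0.981). Jam2 was most like Ly6a (r = 0.996), Flt1 (r = 0.987), which is itself part of the BEC gate, and St6galnac2 (r = 0.987). Tjp1 was most like Sdpr (r = 0.942), Spats2l (r = 0.924) and Cbfa2t3 (r = 0.923), and Gja1 most like Ctnnbip1 (r = 0.945), Abcg1 (r = 0.944) and Rapgef4 (r = 0.943). For Cdh5 they were Polr3gl (r = 0.925), Gtpbp4 (r = 0.916) and Ywhah (r = 0.909), but Polr3gl had r = 0.696 within the SAH library.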

How the data were processed

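Per the labels, RNA of single cells was captured on the 10x Chromium platform with a UMI tag at the 5′ end. The authors deposited unnormalized UMI counts of each gene in each barcode. Per the file headers, the authors counted with Cell Ranger 5.0.0, and the submitters' processing notes name STAR, build mm10 and Seurat 3.0.2. The annotation release and the treatment of introns and strand are not given in the sources used here.

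The members and all lists and gates were chosen with earlier results of these data known. Counts were summed over gated barcodes and scaled to CPM. Fibroblast barcodes had no Prox1, under 2 Ly6c1 and Flt1 UMIs, no lymphocyte marker and at least 2 Pdgfra UMIs, and lymphocyte barcodes had at least 2 lymphocyte marker UMIs in place of the last 2 conditions. Level intervals are exact Poisson, fold intervals exact conditional binomial and share intervals exact Clopper-Pearson. Predicted doublets (Scrublet in scanpy 1.11.5, expected rate 0.1: 838 SAH and 642 sham barcodes) were kept, and their removal is an alternative. Named genes of the lists had at least 50 CPM and the largest folds past 1.5-fold, up to 6 per list and class. The closest genes by likeness were found for members of at least 50 CPM in a group. They were taken from genes of at least 20 CPM in a group. The fold calculation was tested on simulated class counts drawn with counting error only. That checks the calculation and not whether the intervals cover spread between cells or libraries. Coordinates are from GENCODE on GRCm38. Python 3.11.15, numpy 2.4.6, pandas 2.3.3 and scipy 1.17.1 were used. Alternatives changed the barcode filters, gates, scaling, depth, cell weights, subset mix, fold limit and low-level filter, 1 at a time.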

Additional observations from a re-analysis of the deposited data

Results flagged for a closer look

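Pecam1 lay on opposite sides of 1 in the endothelial classes as gated, but not under every setting. Its fold, SAH over sham, was 1.04 (95% counting interval 1.01 to 1.06) in LEC and 0.974 (0.963 to 0.986) in BEC, and neither interval held 1. The difference between the classes was not tested, since each group is 1 library. In BEC the fold was 1.01 with at least 4 Ly6c1 and Flt1 UMIs and 1.05 without barcodes with UMIs of other cell types. It was 1.02 with a gate on Flt1 alone and 1.05 without barcodes of 5 fibroblast marker UMIs, both chosen after seeing the data. In LEC barcodes that also met the BEC gate it was 0.848. The opposite directions thus depend on the gates.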

How the results depend on the processing

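Of 1204 values of single genes under another setting, 947 stayed within their counting interval, 257 moved beyond it and 0 that were past the limit changed direction. Of 128 class values 110 stayed and 18 moved. Both tallies include values that could not move. The settings on Prox1 and on LEC without the BEC gate left the folds of BEC unchanged, and those on the BEC gate left the folds of LEC unchanged. A count of genes was taken to have stayed if it was within 1.5-fold of the main count. With the narrower fold limit, 1 gene was lower in LEC, 1 higher in BEC and 3 lower in BEC, and with a limit of 2-fold 0 were higher in LEC. With at least 1000 genes per barcode, 1 gene (Esam, fold 0.666) passed as lower in BEC. With at least 2 Prox1 UMIs, 0 passed as higher in LEC, where Jam2 had 1.46. The median log2 fold was 0.18 in LEC without the BEC gate. In BEC, where it was -0.03, it was 0.015 with at least 4 Ly6c1 and Flt1 UMIs, 0.066 without barcodes with UMIs of other cell types, 0.019 as a mean of CPM per cell, 0.010 after thinning and -0.069 with equal subset shares. With a BEC gate on Flt1 alone it was 0.052 and without barcodes of 5 fibroblast marker UMIs 0.073, both chosen after seeing the data. With no filter on low levels, 16.9% of genes were past 1.5-fold higher and 14% lower in LEC, and 20.3% higher and 12.2% lower in BEC. The cause of these moves was not tested, except that the fold limits and the missing filter count other genes by construction. No paired analysis was possible because each group is 1 library. Counts limit Ocln everywhere and Cldn11 in BEC.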
